A study of Mus musculus with 10 samples.

Results

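Cytotoxic granule and killing genes encode the tools with which T cells and natural killer cells destroy other cells. They were followed as 10 genes, chosen by symbol, among 29890 genes listed for 10 mouse tumors. The 10 are the granzymes Gzma, Gzmb, Gzmk and Gzmc, the pore protein Prf1, the granule membrane protein Nkg7, the death ligand Fasl, the cystatin Cst7, and the T-box transcription factors Eomes and Tbx21. All 10 were listed above 0 in every tumor, and all 10 had the mean of at least 1 TPM that was asked of a gene to be tested. TPM is a transcript abundance scaled to gene length and to the total of its library. A gene that is low in one group can pass such a mean through its level in the other group.

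The tumors grew under the skin of female C57BL/6J mice, aged 7 to 8 weeks at injection, from the mouse melanoma line B2905-M4. In 5 tumors the injected cells over-expressed Adamts7, a secreted metalloproteinase, and in 5 they over-expressed a vector control. No tumor received immunotherapy. Adamts7 tumors were harvested at day 35 or 45 after injection and vector tumors at day 45 or 50, with 3 of each group at day 45; no tumor is tied to its day or size in the sources used here, so harvest day, tumor size and group cannot be told apart. The promoter that drives the over-expression, and whether the lines were clones, are not given in the sources used here. RNA came from whole tumors, so fewer cells of a type and less RNA per cell cannot be told apart. Nothing in the sources used here says that the tumors of a group came from separately made cell populations, so p-values measure the spread between these tumors.

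Killer lymphocytes store granzymes and perforin in secretory lysosomes and release them at the contact with a target. Perforin opens the target membrane, granzymes enter and cleave proteins inside, and Fas ligand starts death through a receptor on the target surface. Tbx21 (T-bet) and Eomes are transcription factors that direct this program in CD8 T cells and natural killer cells.

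The labels were checked on Adamts7 itself. It lay between 74.8 and 96.0 TPM in the tumors labelled Adamts7 1 to 4, but the tumor labelled Adamts7 5 held 18.2 TPM. Adamts7 was between 6.49 and 28.3 TPM in the vector tumors. Vector tumors 3 and 5 lay above the tumor labelled Adamts7 5, and vector tumors 1, 2 and 4 lay below it. Vector tumors 3 and 5 also stood apart in their makeup. The summed TPM of 7 melanocyte markers was 312 and 1909 there, against 8375 to 16291 in the other vector tumors and 12470 to 22967 in the Adamts7 tumors. The members' fold changes and the list medians are therefore also given without vector tumors 3 and 5. The read depth of the tumors is unknown.

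Promoter sequences are shown for the pair of members whose groups did not overlap, Prf1 and Nkg7, and for the granzymes Gzmb and Gzmc, which lie in 1 gene cluster and whose ratio to each other varied widely between tumors. All 10 members matched RefSeq by symbol, on build GRCm38.p6, which is older than the mm39 named for the expression values. Each window runs from 250 bases before to 50 bases after the annotated start. Capitals mark matches to the RUNX core (TGTGGT or its reverse complement) and to a T-box core (GGTGTGA or its reverse complement).
Prf1 (chr10:61297586-61297885, plus strand): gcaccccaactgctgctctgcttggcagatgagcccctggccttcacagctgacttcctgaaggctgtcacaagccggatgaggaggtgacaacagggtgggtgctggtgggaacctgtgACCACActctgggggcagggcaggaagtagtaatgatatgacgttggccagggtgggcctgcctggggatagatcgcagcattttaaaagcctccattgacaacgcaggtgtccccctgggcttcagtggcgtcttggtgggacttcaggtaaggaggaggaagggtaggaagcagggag
Nkg7 (chr7:43436888-43437187, plus strand): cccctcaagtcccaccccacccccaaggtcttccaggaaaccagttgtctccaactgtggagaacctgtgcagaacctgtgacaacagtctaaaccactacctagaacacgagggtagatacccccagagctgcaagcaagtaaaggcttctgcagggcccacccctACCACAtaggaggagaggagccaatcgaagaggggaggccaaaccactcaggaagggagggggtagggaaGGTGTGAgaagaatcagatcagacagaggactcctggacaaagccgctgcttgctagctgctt
Gzmb (chr14:56262285-56262584, minus strand): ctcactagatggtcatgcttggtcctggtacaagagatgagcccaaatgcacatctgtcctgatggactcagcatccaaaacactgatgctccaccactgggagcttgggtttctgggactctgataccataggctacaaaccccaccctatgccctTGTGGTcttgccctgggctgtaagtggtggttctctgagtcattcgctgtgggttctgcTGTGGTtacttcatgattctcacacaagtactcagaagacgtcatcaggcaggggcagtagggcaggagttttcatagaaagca
Gzmc (chr14:56234608-56234907, minus strand): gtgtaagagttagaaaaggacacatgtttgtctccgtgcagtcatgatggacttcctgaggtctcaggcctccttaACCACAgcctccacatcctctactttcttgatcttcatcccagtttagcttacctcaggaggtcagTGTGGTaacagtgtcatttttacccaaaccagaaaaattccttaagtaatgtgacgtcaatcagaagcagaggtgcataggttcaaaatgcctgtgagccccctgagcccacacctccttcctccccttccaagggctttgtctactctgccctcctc

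The RUNX core was present in 6 of 10 member windows, those of Gzma, Gzmb, Gzmc, Prf1, Nkg7 and Cst7, and in 16.8% of 32851 RefSeq promoter windows of the same length. The T-box core was in 2 of 10, Gzmk and Nkg7, against 3.98% of all windows. In Nkg7 it began 13 bases before the annotated start, and the RUNX core began 83 bases before it. Another 4 motifs were searched on both strands. The ETS motif CAGGAAG was in 5 of 10 windows (13.3% of all), the palindromic STAT motif TTCNNNGAA in 2 (8.3%), the palindromic AP-1 motif TGANTCA in 2 (7.81%) and the palindromic CRE TGACGTCA in 1, Gzmc (1.79%). The motifs were chosen for factors known in lymphocytes, after the expression values were known. No matches within a member window overlapped. A match describes letters only, and binding was not measured.

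All 10 members were highest in vector tumors 3 and 5, and their group means were lower in the Adamts7 tumors. Vector tumors 3 and 5 were the highest of all tumors in 24.1% of the 15276 tested genes. The members' mean level was 4.41 and 4.06 log2(TPM + 1) in those tumors. It lay between 1.42 and 2.03 in vector tumors 1, 2 and 4, and between 0.856 and 1.70 in the Adamts7 tumors. No member passed over all genes tested (limma with Benjamini-Hochberg adjustment, 0 of 10 lower, against 0.196% of tested genes called lower). The over-expressed gene Adamts7 was not called in that fit either (log2 fold change 2.21, SE 0.54, limma adjusted p = 0.104). At an unadjusted p under 0.05, 8 of 10 members were lower, against 15.3% of tested genes. The median log2 fold change of the members was -1.52, against -0.10 over all tested genes, both on the log2(TPM + 1) scale, which understates the change of low genes. Without vector tumors 3 and 5 the members' median was -0.47, against -0.10 for all tested genes, and 2 of 10 had an unadjusted p under 0.05 (9.88% of tested genes) and 0 of 10 were called (0.17%).

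The authors' deposited table called more of the members. Lower in the authors' deposited table were 9 of 10 at an adjusted p under 0.05, against 5.48% of the 18796 genes with an adjusted p there. Gzmk was the exception in the authors' deposited table, with a log2 fold change of -2.19 and an adjusted p of 0.0603. The log2 fold changes in the authors' deposited table ran from -4.50 for Gzmc to -2.10 for Eomes. Both sets of tests rest on the same 10 tumors, and the authors' table could not be recomputed without single tumors here.

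**Figure D1:**
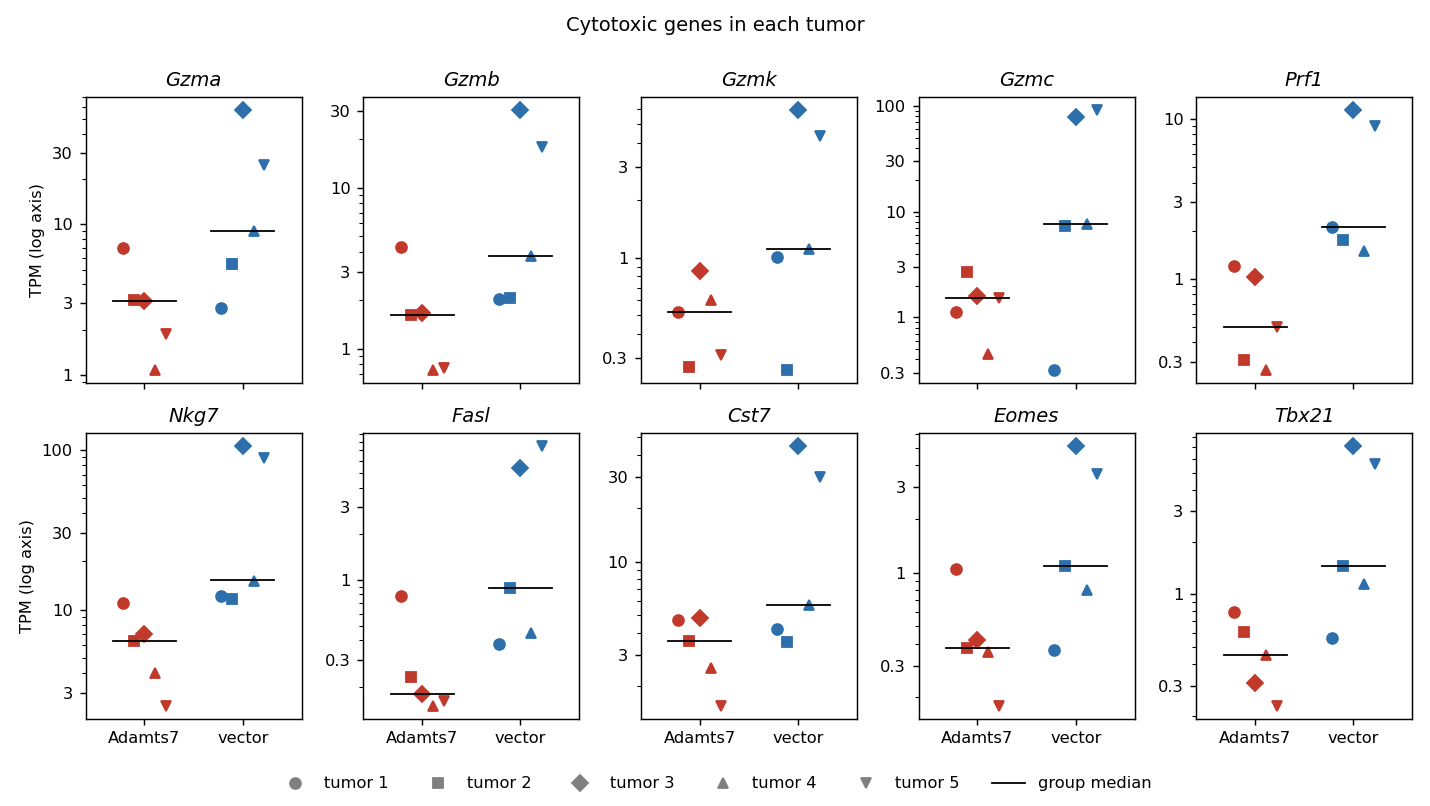
TPM of the 10 genes (vertical log axes) in each Adamts7 tumor (red) and each vector tumor (blue), with marker shapes for tumor numbers and lines for group medians (n = 5 each). Vector tumors 3 and 5 lie highest in every panel, and only in the Prf1 and Nkg7 panels do all vector tumors lie above all Adamts7 tumors.

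Prf1 encodes perforin, the pore-forming protein of the granule. It was at 1.21, 0.31, 1.03, 0.27 and 0.50 TPM in the tumors labelled Adamts7 1 to 5, and at 2.10, 1.75, 11.34, 1.50 and 9.04 TPM in vector tumors 1 to 5. Every vector tumor lay above every Adamts7 tumor. The gap was small, from 1.21 TPM in the tumor labelled Adamts7 1 to 1.50 TPM in vector tumor 4. Counting error at such low values could not be given. The means were 0.664 ± 0.430 and 5.15 ± 4.68 TPM (SD, n = 5 each). The log2 fold change of Prf1 was -1.58 (SE 0.47, limma adjusted p = 0.136). Without vector tumors 3 and 5 it was -0.77 (SE 0.24, limma adjusted p = 0.256), and the mean of vector tumors 1, 2 and 4 was 1.78 ± 0.301 TPM (SD, n = 3). In the authors' deposited table the log2 fold change of Prf1 was -2.86 (adjusted p = 0.000839).

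Nkg7 encodes a membrane protein of cytotoxic granules that takes part in their release. It was at 10.91, 6.38, 7.05, 3.98 and 2.50 TPM in the tumors labelled Adamts7 1 to 5, and at 12.13, 11.60, 105.76, 15.18 and 88.93 TPM in vector tumors 1 to 5. The groups did not overlap, although the tumor labelled Adamts7 1 lay within 1 TPM of vector tumor 2. The means were 6.16 ± 3.22 and 46.7 ± 46.6 TPM (SD, n = 5 each), and the log2 fold change was -2.21 (SE 0.66, limma adjusted p = 0.136). Without vector tumors 3 and 5 the log2 fold change of Nkg7 was -1.08 (SE 0.36, limma adjusted p = 0.280). Nkg7 was the most abundant member in 9 of 10 tumors, with Gzmc above it in vector tumor 5. Groups that do not overlap with a lower Adamts7 side were found for 2 of 10 members, Prf1 and Nkg7, against 3.78% of tested genes.

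Gzma encodes a tryptase-like granzyme. It was at 6.98, 3.12, 3.08, 1.08 and 1.88 TPM in the tumors labelled Adamts7 1 to 5, and at 2.76, 5.42, 57.49, 9.01 and 24.75 TPM in vector tumors 1 to 5. The tumor labelled Adamts7 1 lay above vector tumors 1 and 2, so the groups overlapped. Gzma had a log2 fold change of -1.76 (SE 0.68, limma adjusted p = 0.199) with all tumors and -0.71 (SE 0.46, limma adjusted p = 0.559) without vector tumors 3 and 5.

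Gzmb encodes the granzyme that cleaves after aspartate and activates caspases in the target. It was at 4.26, 1.61, 1.67, 0.74 and 0.76 TPM in the tumors labelled Adamts7 1 to 5, and at 2.05, 2.07, 30.34, 3.79 and 18.00 TPM in vector tumors 1 to 5. The tumor labelled Adamts7 1 exceeded vector tumors 1, 2 and 4. The log2 fold change of Gzmb was -1.58 (SE 0.67, limma adjusted p = 0.225), and -0.47 (SE 0.38, limma adjusted p = 0.654) without vector tumors 3 and 5.

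Gzmc, a rodent granzyme of activated killer cells from the same gene cluster as Gzmb, had the widest range of the members on the log scale. It was at 1.13, 2.69, 1.58, 0.45 and 1.52 TPM in the tumors labelled Adamts7 1 to 5, and at 0.32, 7.33, 79.12, 7.58 and 90.91 TPM in vector tumors 1 to 5. Of the vector tumors 4 lay above all Adamts7 tumors, while vector tumor 1 was the lowest of all 10. The means were 1.47 ± 0.815 and 37.1 ± 44.1 TPM (SD, n = 5 each), and the log2 fold change was -2.64 (SE 1.02, limma adjusted p = 0.198). Without vector tumors 3 and 5 the log2 fold change of Gzmc was -0.94 (SE 0.61, limma adjusted p = 0.562).

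Reads of Gzmc could be divided with its close relatives by estimate. In the GENCODE M21 transcripts 14.8% of the 31-base words of Gzmc also occurred in another granzyme transcript compared, and 0 of its 150-base words, the length of a read, did. The neighbouring Gzmd, Gzme and Gzmf were each at or below 0.93 TPM in every tumor, also in vector tumors 3 and 5. Gzmn had 0.15 TPM in the tumor labelled Adamts7 1 and was listed at 0 in the other 9, and Gzmg was not analysed here.

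Gzmk encodes a granzyme known from memory-like CD8 T cells. It was at 0.52, 0.27, 0.85, 0.60 and 0.31 TPM in the tumors labelled Adamts7 1 to 5, and at 1.01, 0.26, 5.93, 1.11 and 4.35 TPM in vector tumors 1 to 5. Vector tumor 2 was the lowest of all, and the other 4 vector tumors lay above the Adamts7 tumors. For Gzmk the log2 fold change was -0.95 (SE 0.44, limma adjusted p = 0.259), and -0.23 (SE 0.24, limma adjusted p = 0.749) without vector tumors 3 and 5.

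The mix of granzymes differed between tumors of the same group. Gzmc made 48.6%, 45.8%, 35.3% and 65.9% of the summed TPM of the 4 granzymes in vector tumors 2 to 5, but 5.21% in vector tumor 1. In the Adamts7 tumors its share lay between 8.77% and 35.0%. Gzma made 37.6% to 54.2% in the Adamts7 tumors and 17.9% to 45.0% in the vector tumors, and the shares of all 4 granzymes overlapped between groups. The Gzmc to Gzmb ratio ran from 0.156 in vector tumor 1 to 5.05 in vector tumor 5, while Gzma to Gzmb ran only from 1.35 to 2.62 over the 10 tumors.

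**Figure D2:**
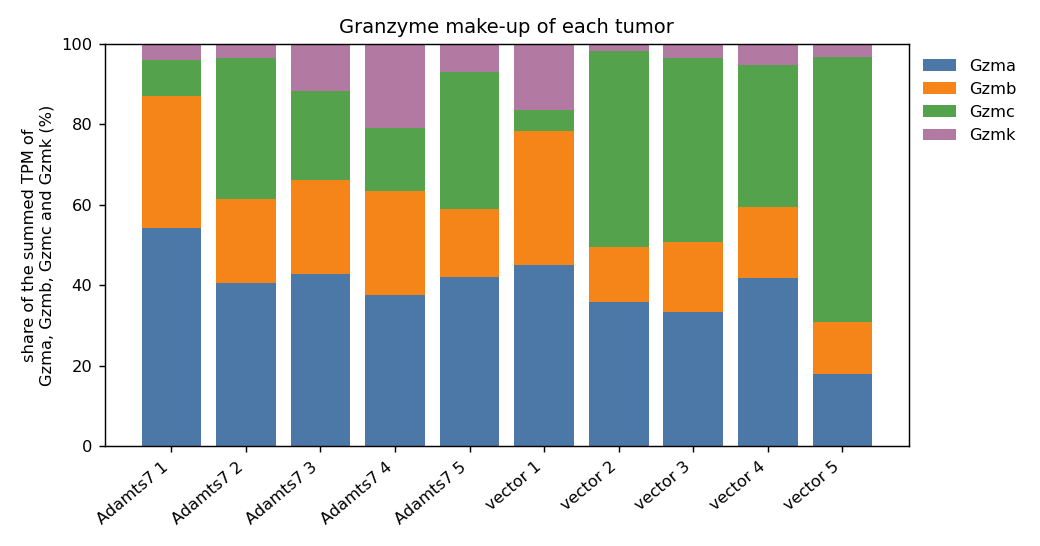
Stacked bars give the share (%) of Gzma, Gzmb, Gzmc and Gzmk in their summed TPM in each tumor. The Gzmc share is smallest in vector tumor 1 (5.21%) and largest in vector tumor 5 (65.9%).

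Fasl encodes Fas ligand, which kills through a surface receptor and without granzymes. It was at 0.78, 0.23, 0.18, 0.15 and 0.16 TPM in the tumors labelled Adamts7 1 to 5, and at 0.38, 0.88, 5.38, 0.45 and 7.48 TPM in vector tumors 1 to 5. The tumor labelled Adamts7 1 lay above vector tumors 1 and 4, and the other 4 Adamts7 tumors lay below every vector tumor. The log2 fold change of Fasl was -1.18 (SE 0.52, limma adjusted p = 0.241), and -0.28 (SE 0.22, limma adjusted p = 0.651) without vector tumors 3 and 5.

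Cst7 encodes cystatin F, an inhibitor of the cathepsins that activate granzymes. It was at 4.71, 3.61, 4.81, 2.55 and 1.56 TPM in the tumors labelled Adamts7 1 to 5, and at 4.18, 3.54, 44.65, 5.73 and 29.74 TPM in vector tumors 1 to 5. Of the Adamts7 tumors, 3 lay above vector tumor 2. Cst7 had a log2 fold change of -1.46 (SE 0.64, limma adjusted p = 0.237), and -0.35 (SE 0.30, limma adjusted p = 0.681) without vector tumors 3 and 5. Cst7 is also known from myeloid cells. Of 6 macrophage markers 5 had negative log2 fold changes, with 0 called by limma and 0 at an unadjusted p under 0.05; their summed TPM was 2453 and 2232 in vector tumors 3 and 5, 651 to 1006 in the other vector tumors and 335 to 1622 in the Adamts7 tumors, with the 335 in the tumor labelled Adamts7 5 and 780 or more in the others. Their median log2 fold change was -0.63, and 0.04 without vector tumors 3 and 5. Their part in the Cst7 difference was not tested.

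Tbx21 was at 0.79, 0.61, 0.31, 0.45 and 0.23 TPM in the tumors labelled Adamts7 1 to 5, and at 0.56, 1.46, 7.12, 1.15 and 5.62 TPM in vector tumors 1 to 5. All vector tumors but the first lay above the Adamts7 tumors. The log2 fold change of Tbx21 was -1.21 (SE 0.44, limma adjusted p = 0.186), and -0.46 (SE 0.22, limma adjusted p = 0.445) without vector tumors 3 and 5.

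Eomes was at 1.05, 0.38, 0.42, 0.36 and 0.18 TPM in the tumors labelled Adamts7 1 to 5, and at 0.37, 1.09, 5.11, 0.80 and 3.55 TPM in vector tumors 1 to 5. The tumor labelled Adamts7 1 exceeded vector tumors 1 and 4. Eomes had a log2 fold change of -0.89 (SE 0.41, limma adjusted p = 0.251), the smallest of the 10 members, and -0.25 (SE 0.24, limma adjusted p = 0.723) without vector tumors 3 and 5. The Eomes to Tbx21 ratio lay between 0.632 and 0.747 in the vector tumors and between 0.623 and 1.35 in the Adamts7 tumors.

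The same tumors led for many members. The tumor labelled Adamts7 1 was the highest Adamts7 tumor for 7 of 10 members, and it exceeded vector tumor 1 in 7 of 10. The lowest Adamts7 tumor was the one labelled 4 for 5 members and the one labelled 5 for 4. Among the vector tumors, vector tumor 1 was the lowest for 6 members. Means in vector tumors 3 and 5 were between 5.71 times (Prf1) and 16.7 times (Gzmc) those in vector tumors 1, 2 and 4. Means in vector tumors 1, 2 and 4 were between 1.30 times (Cst7) and 3.44 times (Gzmc) those in the Adamts7 tumors. Leaving out the tumor labelled Adamts7 5, lowest of its group in Adamts7, gave log2 fold changes from -2.66 for Gzmc to -0.82 for Eomes. Again 0 of 10 were called lower over all genes by limma, against 3.17% of tested genes. At an unadjusted p under 0.05, 4 of 10 members were lower in that fit, against 17.8% of tested genes.

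**Figure D3:**
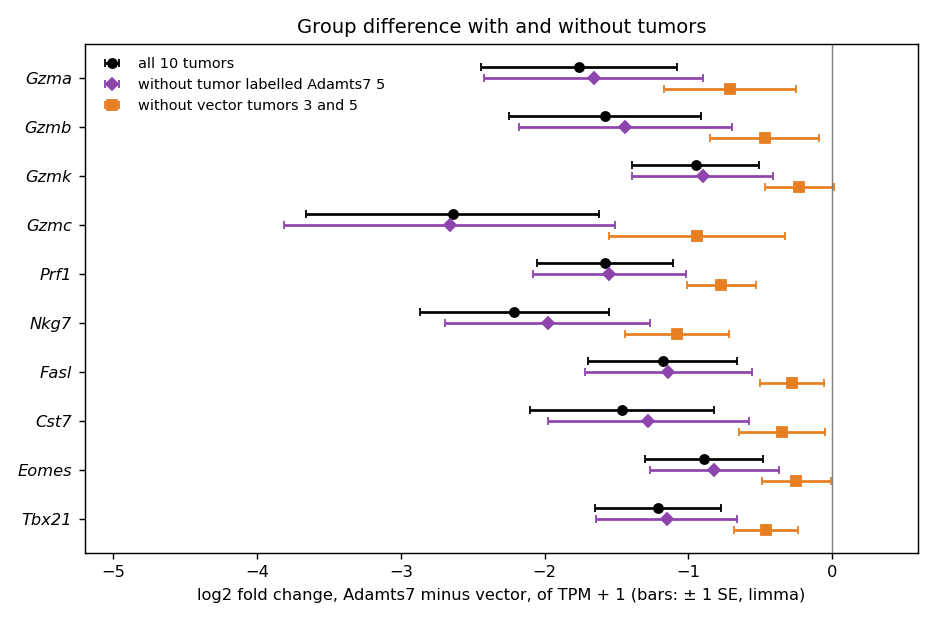
Log2 fold change (Adamts7 minus vector, of TPM + 1, horizontal axis) with ± 1 SE from limma for each gene, with all 10 tumors (black), without the tumor labelled Adamts7 5 (purple) and without vector tumors 3 and 5 (orange). All point estimates are below 0, and the orange points lie closest to 0.

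Markers of the cells that carry these genes were measured beside them. All 10 T cell markers were lower on average in the Adamts7 tumors, with a median log2 fold change of -1.69. Limma called 0 over all genes, against 0.196% of tested genes called lower. All 10 were lower at an unadjusted p under 0.05, against 15.3% of tested genes. The median of the T cell markers was -0.72 without vector tumors 3 and 5, with 0 called by limma. In that fit 6 were lower at an unadjusted p under 0.05, against 9.88% of tested genes. The authors' deposited table called 9 of the 10 lower, against 5.48% of its genes. Their summed TPM was 449 and 336 in vector tumors 3 and 5, 51.5 to 69.9 in the other vector tumors and 21.1 to 52.3 in the Adamts7 tumors. Cd3e, which encodes an invariant chain of the T cell receptor, was at 5.10, 3.32, 4.16, 2.14 and 1.44 TPM in the tumors labelled Adamts7 1 to 5 and at 6.33, 7.98, 40.39, 6.46 and 33.28 TPM in vector tumors 1 to 5. Cd8a, the CD8 coreceptor, was at 2.98, 1.72, 2.33, 1.73 and 1.33 TPM in the tumors labelled Adamts7 1 to 5 and at 5.70, 5.57, 62.77, 6.09 and 37.24 TPM in vector tumors 1 to 5. Neither gene overlapped between groups. Of the 10 T cell markers 3 were lower without overlap, Cd3e, Cd8a and Cd8b1, against 3.78% of tested genes. The log2 fold change of Cd3e was -1.88 (SE 0.53, limma adjusted p = 0.128), and -0.97 (SE 0.30, limma adjusted p = 0.25) without vector tumors 3 and 5. That of Cd8a was -2.34 (SE 0.64, limma adjusted p = 0.121), and -1.19 (SE 0.20, limma adjusted p = 0.0698) without them.

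Of 8 natural killer cell markers 7 were tested, with a median log2 fold change of -1.87 and 0 called by limma. All 7 were lower at an unadjusted p under 0.05, against 15.3% of tested genes. Lower without overlap were 2 of 7, Klrd1 and Il2rb, against 3.78% of tested genes. The natural killer cell median was -1.04 without vector tumors 3 and 5, with 0 called by limma. In that fit 4 were lower at an unadjusted p under 0.05, against 9.88% of tested genes. The authors' deposited table called 8 of 8 lower, against 5.48% of its genes. Their summed TPM was 316 and 261 in vector tumors 3 and 5, 21.6 to 49.9 in the other vector tumors and 4.59 to 27.6 in the Adamts7 tumors. Ncr1, the receptor NKp46, was at 0.95, 0.08, 0.34, 0.07 and 0.30 TPM in the tumors labelled Adamts7 1 to 5 and at 0.69, 1.14, 7.66, 1.54 and 7.17 TPM in vector tumors 1 to 5. Mast cells are another known source of granzymes. Their summed marker TPM was 220 to 314 in the tumors labelled Adamts7 1 to 4, 45.8 in the tumor labelled Adamts7 5, and 134 to 265 in the vector tumors. The median log2 fold change of their 8 markers was -0.10, with 0 called by limma and 0 at an unadjusted p under 0.05, and it was 0.16 without vector tumors 3 and 5. Without the tumor labelled Adamts7 5 the median was 0.13 and 1 of 8 was called higher, the tryptase Tpsb2 (log2 fold change 1.05, limma adjusted p = 0.0244), against 1.12% of tested genes. Without that tumor and vector tumors 3 and 5 the median was 0.54 and 2 of 8 were called higher, against 1.29% of tested genes, Tpsb2 (1.04, limma adjusted p = 0.0288) and the chymase Mcpt4 (0.79, limma adjusted p = 0.0262). Both were named after their values were seen. Cpa3, mast cell carboxypeptidase, was at 15.7 ± 7.94 TPM in the Adamts7 and 17.5 ± 6.36 TPM in the vector tumors (SD, n = 5 each). Of 6 plasmacytoid dendritic cell markers 3 were tested, with 0 called by limma. Of these 3, 1 was lower at an unadjusted p under 0.05, against 15.3% of tested genes. Their median log2 fold change was -0.51, and -0.02 without vector tumors 3 and 5. Tcf4 went the other way, at 0.29. Siglech, which defines those cells, averaged 0.614 TPM and was not tested. It was at most 0.20 TPM in an Adamts7 tumor and at 0.24, 0.63, 2.39, 0.14 and 2.17 TPM in vector tumors 1 to 5.

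Of the RNA quality genes, all 8 had positive log2 fold changes, 0 were called by limma and 3 were higher at an unadjusted p under 0.05, against 4.86% of tested genes. Their median was 0.48, and 0.32 without vector tumors 3 and 5. The mitochondrial genes mt-Co1 and mt-Nd1 were higher without overlap, 2 of 8 against 1.11% of tested genes, and the authors' deposited table called 3 of 8 higher, against 2.48% of its genes. The summed TPM of these mitochondrially encoded and stress genes was 28889 to 34394 in the Adamts7 tumors and 18741 to 26740 in the vector tumors, lowest in vector tumor 3. Their part in the members' differences, and that of melanocyte content, was not tested.

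The members were also set against Cd8a in the same tumor. The median ratio to Cd8a was higher in the Adamts7 tumors for 9 of 10 members, with Gzmc the exception, and the groups overlapped for 9 of 10. Cd8a itself had a log2 fold change of -2.34, against a median of -0.1 over all tested genes. A gene that falls less than Cd8a tends to a higher ratio in the Adamts7 tumors. This count therefore cannot set the members apart from other genes, and the share over all tested genes was not computed. For Prf1 the ratio to Cd8a was 0.156 to 0.442 in the Adamts7 tumors and 0.181 to 0.368 in the vector tumors. For Gzmb it was 0.428 to 1.43 and 0.360 to 0.622. For Cst7 the ratio to Cd8a was 1.17 to 2.10 in the Adamts7 tumors and 0.636 to 0.941 in the vector tumors, with no overlap. How many of all tested genes show no overlap in this ratio was not computed. Relative to Cd3e, Cst7 overlapped, at 0.924 to 1.19 and 0.444 to 1.11, and Cst7 is also known from myeloid cells. The ratio of Cd8a to Cd3e had a median of 0.584 in the Adamts7 tumors and 0.943 in the vector tumors.

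Against Cd3e all 10 members overlapped between groups, and the median ratio was higher in the Adamts7 tumors for 4 of 10. The ratio of Nkg7 to Cd3e was 1.69 to 2.14 in the Adamts7 tumors and 1.45 to 2.67 in the vector tumors, and that of Prf1 was 0.0934 to 0.347 and 0.219 to 0.332. Gzmc spread widest, from 0.0506 in vector tumor 1 to 2.73 in vector tumor 5. These ratios are descriptions without a test; natural killer cells can carry these genes with little Cd8a or surface CD3, and ratios of low TPM values are imprecise.

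**Figure D4:**
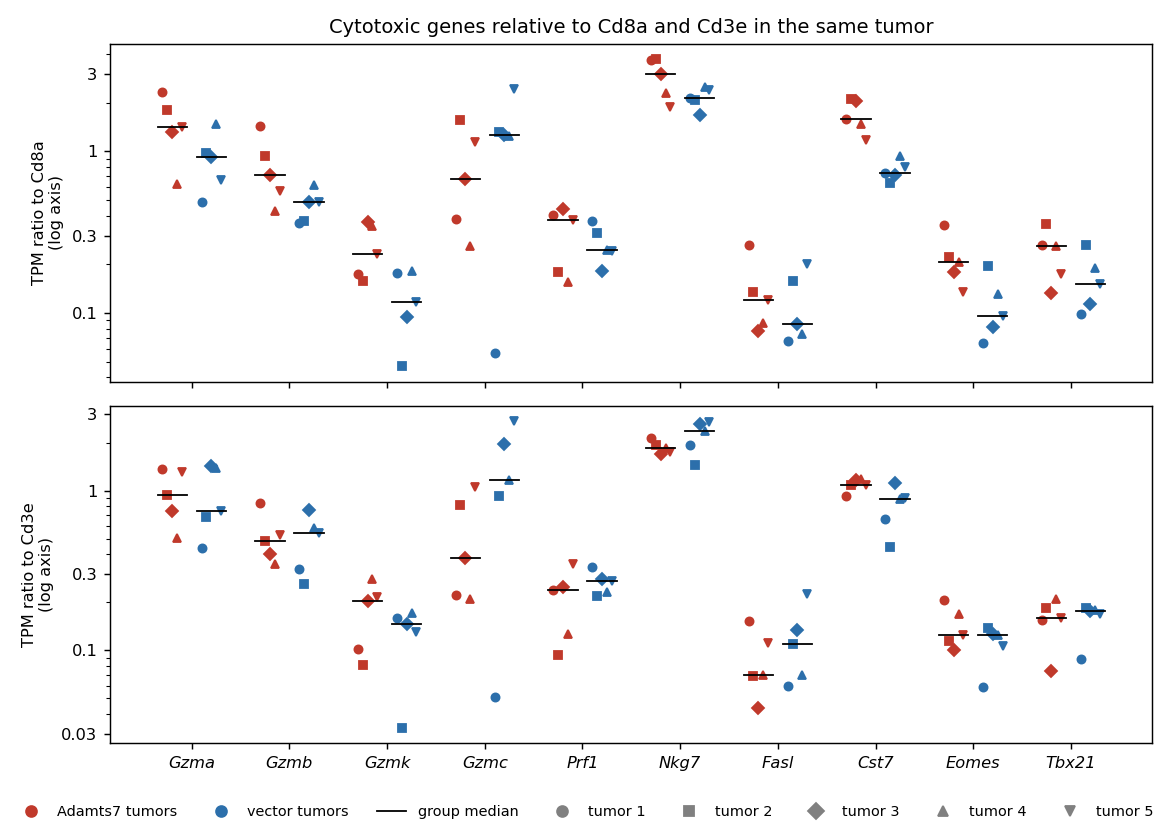
TPM of each gene divided by the TPM of Cd8a (top) or Cd3e (bottom) in the same tumor (vertical log axes), red for Adamts7 and blue for vector tumors, with lines for group medians. Only for Cst7 over Cd8a do the groups not overlap.

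The antigen receptor repertoire gave a second readout of T cells. The authors' deposited repertoire table lists 5, 9, 9, 5 and 9 distinct TRB clonotypes, or T cell receptor beta chain sequences, in the tumors labelled Adamts7 1 to 5, and 17, 23, 87, 19 and 94 in vector tumors 1 to 5. Every vector tumor had more than every Adamts7 tumor, and vector tumors 3 and 5 had the most, as for the 10 members. For TRA, the alpha chain, the authors' deposited table lists 10, 8, 4, 3 and 6 distinct clonotypes in the tumors labelled Adamts7 1 to 5 and 14, 13, 51, 13 and 72 in vector tumors 1 to 5, again without overlap. The tumor labelled Adamts7 1, which led its group in 7 members, had the most TRA clonotypes of its group and, like the tumor labelled Adamts7 4, the fewest TRB clonotypes. No correlation was computed, since vector tumors 3 and 5 lay apart from the rest, and clonotype numbers are not scaled to depth.

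**Figure D5:**
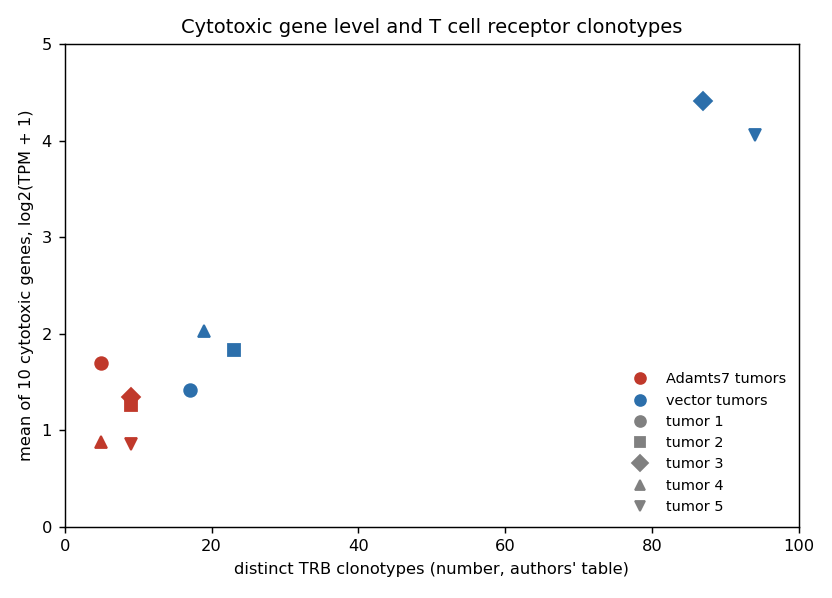
Mean level of the 10 genes (log2(TPM + 1), vertical axis) against the number of distinct TRB clonotypes (horizontal axis), red for Adamts7 and blue for vector tumors. Vector tumors 3 and 5 lie apart at 87 and 94 clonotypes, and the other 8 tumors lie between 5 and 23.

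Other genes of the killing pathway were read from 4 lists. Of the granule protein and processing list 6 of 11 measured members were tested, with 0 called by limma. Of these 6, 3 were lower at an unadjusted p under 0.05, against 15.3% of tested genes. The list median log2 fold change was -0.999, and -0.33 without vector tumors 3 and 5. Serpinb9 encodes the inhibitor that guards cells against granzyme B. It was at 9.39 ± 0.900 TPM in the Adamts7 and 23.0 ± 9.04 TPM in the vector tumors (SD, n = 5 each), without overlap (log2 fold change -1.13, SE 0.23, limma adjusted p = 0.0745; it was called without the tumor labelled Adamts7 5, at a limma adjusted p of 0.0442). Serpinb9 had a log2 fold change of -0.75 without vector tumors 3 and 5 (SE 0.13, limma adjusted p = 0.0742). Lower without overlap was 1 of 6 tested, Serpinb9, against 3.78% of tested genes. Ctsw, a cathepsin of killer cells, was at 4.45 ± 1.84 against 27.2 ± 26.6 TPM, and Srgn, the granule proteoglycan serglycin, at 36.2 ± 15.6 against 125 ± 106 TPM (SD, n = 5 each). The log2 fold change went from -1.85 to -0.8 for Ctsw without vector tumors 3 and 5, and from -1.4 to -0.46 for Srgn. The authors' deposited table called 3 of 11 of these genes lower at an adjusted p under 0.05, against 5.48% of its genes.

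Granule transport and release genes showed no common direction. Of 10 tested, 6 had negative log2 fold changes, the median was -0.09, and 0 were called by limma (0.0262% of tested genes were called higher). At an unadjusted p under 0.05, 3 were lower (15.3% of tested genes) and 2 higher, Sytl2 and Rab27a (4.86%). The list median was 0.01 without vector tumors 3 and 5. In that fit 0 were lower at an unadjusted p under 0.05 (9.88% of tested genes). Only Sytl2 was higher there (limma unadjusted p = 0.00462), and the share of all tested genes higher in that fit was not counted. Sytl2, an effector of Rab27a that docks granules and is also known from melanocytes, was at 68.2 ± 16.1 TPM in the Adamts7 and 25.3 ± 16.8 TPM in the vector tumors (SD, n = 5 each), higher without overlap (log2 fold change 1.65, SE 0.44, limma adjusted p = 0.114). For Sytl2 the value without vector tumors 3 and 5 was 0.91 (SE 0.24, limma adjusted p = 0.185). Higher without overlap was 1 of 10 tested, Sytl2, against 1.11% of tested genes. The authors' deposited table called 1 of 10 of these genes higher (2.48% of its genes), Sytl2 (log2 fold change 1.55, adjusted p = 0.0176), and 0 lower. The lowest Sytl2 values, 8.50 and 9.40 TPM, came from vector tumors 3 and 5. So did the lowest Rab27a values, 12.89 and 21.33 TPM. Rab27a had a log2 fold change of 1.10 (SE 0.44, limma adjusted p = 0.213), and 0.37 without vector tumors 3 and 5. The part of melanocyte content in these differences was not tested. Coro1a, an actin regulator of leukocytes, was at 45.8 ± 23.9 against 127 ± 91.4 TPM, and the fusion protein gene Snap23 at 19.7 ± 5.50 against 33.1 ± 13.1 TPM (SD, n = 5 each). The log2 fold change went from -1.33 to -0.56 for Coro1a without vector tumors 3 and 5, and from -0.67 to -0.28 for Snap23.

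Of 11 death receptor and killing cytokine genes 1 fell over all genes tested, against 0.196% of tested genes called lower. It was Bid, the substrate through which granzyme B and caspase-8 reach the mitochondria. Bid was at 24.88, 23.63, 27.94, 27.50 and 23.15 TPM in the tumors labelled Adamts7 1 to 5 and at 37.56, 47.52, 45.94, 40.42 and 37.10 TPM in vector tumors 1 to 5. Its log2 fold change was -0.69 (SE 0.11, limma adjusted p = 0.0434). Without vector tumors 3 and 5 the log2 fold change of Bid was also -0.69, with a limma adjusted p of 0.0698. The call of Bid was close to the threshold: it was lost in 9 of 10 fits that left out 1 tumor, all but the one without the tumor labelled Adamts7 5 (limma adjusted p from 0.0238 to 0.137), and in 16 of 20 alternatives, with log2 fold changes between -0.73 and -0.59. Bid was highest in vector tumor 2 and, among the vector tumors, lowest in vector tumor 5. The interferon-gamma gene Ifng reached at most 1.34 TPM in an Adamts7 tumor and was at 1.50, 2.52, 33.29, 4.52 and 21.53 TPM in vector tumors 1 to 5 (log2 fold change -2.29, SE 0.67, limma adjusted p = 0.135, and -1.12, SE 0.32, limma adjusted p = 0.214 without vector tumors 3 and 5). Tnfsf10, which encodes the death ligand TRAIL, was at 1.77 ± 0.533 against 9.43 ± 7.62 TPM (SD, n = 5 each). Its log2 fold change was -1.61, and -0.83 without vector tumors 3 and 5. The list's median log2 fold change was -0.996, and -0.24 without vector tumors 3 and 5. At an unadjusted p under 0.05, 5 of 11 were lower, against 15.3% of tested genes. Without those tumors 3 were, against 9.88%. Lower without overlap were 3 of 11, Tnfsf10, Ifng and Bid, against 3.78% of tested genes. The authors' deposited table called 6 of 11 lower, against 5.48% of its genes.

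Of the transcription factors of cytotoxic lymphocytes 10 of 11 were tested, with a median log2 fold change of -0.75 and 0 called by limma. Of these 10, 2 were lower at an unadjusted p under 0.05, against 15.3% of tested genes. The authors' deposited table called 3 of 11 lower, against 5.48% of its genes. Tox, a factor of chronically stimulated T cells, was at 0.454 ± 0.201 TPM in the Adamts7 and 2.48 ± 2.06 TPM in the vector tumors. Lower without overlap was 1 of 10 tested, Tox, against 3.78% of tested genes. Runx3, which directs the CD8 program, was at 2.69 ± 1.23 against 9.13 ± 8.37 TPM, and Tcf7, a factor of naive and memory T cells, at 15.9 ± 2.70 against 22.1 ± 5.65 TPM (SD, n = 5 each). The log2 fold changes of Tox, Runx3 and Tcf7 were -1.07, -1.11 and -0.43. They were -0.46, -0.23 and -0.18 without vector tumors 3 and 5. Without vector tumors 3 and 5 the list median was -0.10, against -0.10 over all tested genes.

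The genes most like the members' mean pattern over the 10 tumors were Rinl, Lat, C1s1, Itgal and BE692007. Likeness was the mean absolute difference between centred log2(TPM + 1) profiles, and it ran from 0.101 for Rinl to 0.142 for BE692007. Among the members it ran from 0.196 for Cst7 to 0.876 for Gzmc, so Gzmc lay furthest from the mean pattern. The profiles were not scaled, so this distance counts the size of changes as well as their shape. Lat, the adaptor of T cell receptor signaling, was at 3.49 ± 1.09 TPM in the Adamts7 and 16.7 ± 15.1 TPM in the vector tumors, and Itgal, the integrin alpha L chain of lymphocytes, at 3.84 ± 1.73 and 19.3 ± 17.3 TPM (SD, n = 5 each). C1s1 encodes a complement protease and was at 15.3 ± 6.79 and 62.1 ± 54.9 TPM (SD, n = 5 each). The log2 fold changes of Lat, Itgal and C1s1 were -1.56, -1.67 and -1.56. They were -0.65, -0.72 and -0.6 without vector tumors 3 and 5. Over the 8 tumors without vector tumors 3 and 5 none of these 5 genes was among the nearest 5. Their ranks there, among the tested genes outside the members, ran from 15 (Rinl) to 82 (BE692007). Their differences there ran from 0.109 for Rinl to 0.157 for BE692007.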

How the data were processed

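RNA of 10 tumors was sequenced, 1 library each. RSEM, DESeq2 and mm39 are named in the submitters' processing notes; the annotation and any use of molecular identifiers or spike-ins are not given in the sources used here. Expression values deposited by the authors are log2 of TPM + 1; raised back, they sum to 995286 to 998019 TPM a tumor. The comparison table that the authors deposited holds a normalized signal averaged over libraries, log2 fold changes, a score and p-values; Adamts7 is positive in it, which sets its direction. Of its 30040 gene identifiers 28805 matched a symbol. The authors' deposited repertoire table holds other measures, here clonotype numbers.

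The group difference was fitted by limma 3.58.1 (R 4.3.3) for the 15276 genes whose TPM averaged 1 or more. The fit used log2 values with 1 TPM added as pseudocount, a prior variance with a trend and no covariate, with Benjamini-Hochberg adjustment over those genes and a threshold of 0.05. On simulated data of 15276 genes for this 5 against 5 comparison, the fit recovered 52.6% of log2 changes of 1 and 86.0% of log2 changes of 2. The changed genes were drawn at random from all tested genes. The rates are therefore not those of the members, whose SE ran from 0.41 (Eomes) to 1.02 (Gzmc). Groups came from the titles. The members, lists, motifs and tests were chosen with earlier results of these data known. Named were all members, up to 3 of each pathway list with the smallest p, Cd3e, Cd8a, Ncr1, Cpa3 and the 5 genes nearest in pattern. Siglech, Tcf4, Cd8b1, Klrd1, Il2rb, Rab27a, Tpsb2, Mcpt4, mt-Co1, mt-Nd1 and the granzyme neighbours were added after their values were seen. No 2 tumors had identical values. Alternatives were tumors left out, a replicate block, weights per tumor, a second pseudocount, and other filters, scalings and variance priors.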

Additional observations from a re-analysis of the deposited data

Results flagged for a closer look

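Of 72 groups of 5 tumors examined, 2 held a tumor far from the others, where chance flags about 1 in 20. Fasl was at 0.832 log2(TPM + 1) in the tumor labelled Adamts7 1, and its distance to the next tumor was 0.846 of the range of the Adamts7 tumors. Adamts7 was at 4.26 log2(TPM + 1) in the tumor labelled Adamts7 5, with a distance of 0.848 of the range.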

How the results depend on the processing

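No member was called in any of the 20 alternatives, and all 10 kept a negative log2 fold change in each; limma adjusted p-values ran from 0.0756 (Gzmc) to 0.749 (Gzmk). The number of all tested genes called was 34, with 30 lower and 4 higher. It was 10 without a filter, 1219 with tumor weights, 0 with the replicate block, 6 to 655 when 1 tumor was left out, and 800 without vector tumors 3 and 5 and the tumor labelled Adamts7 5; 655 came without the tumor labelled Adamts7 5. The cause was not tested. Median-of-ratios scaling and quantile normalization each gave 20 lower and 10 higher, and the latter moved the median of all genes from -0.10 to 0.04. Replicate numbers did not pair the tumors: deviations of same-numbered tumors correlated between -0.278 and 0.262, and 1 of 5 Adamts7 tumors correlated best with its own number. Bid lost its call in 16 of 20 alternatives, scaling and the replicate block included. Cpa3, not called in any, had log2 fold changes from -0.46 without the tumor labelled Adamts7 1 to 0.10 without the tumor labelled Adamts7 5, and 0.10 also without vector tumors 3 and 5 and the tumor labelled Adamts7 5. Cd8a was called with tumor weights and without those 3 tumors, Serpinb9 in 3 alternatives and Sytl2 with tumor weights. TPM keeps no depth, so counting error at values near 1 TPM, where Gzmk, Fasl, Eomes and Tbx21 lie in most tumors, could not be given. The same limit holds for Prf1, at 0.27 to 1.21 TPM in the Adamts7 tumors and 1.5 to 2.1 TPM in vector tumors 1, 2 and 4.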
